A study of Mus musculus with 33 samples.

Results

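The genes described here were 8 mouse genes of immune recognition and cell fusion, out of 38355 genes with counts: Cd200, Cd200r1, Cd200r4, Cd300lf, Cd300lb, Pilra, Klrb1b and Dcstamp. They were chosen by their measured levels, because several of them lie near 0 in WT mice and are higher in APP mice, and so their differences between APP and WT mice are given below as a description and without a test. Hippocampal CA1 RNA was sequenced in 2 experiments that asked what JQ1, an inhibitor of BET bromodomain proteins, which read acetylated histones, does to gene expression.

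The aged experiment had 3 groups of mice of 8 to 10 months: APP mice given JQ1 (n = 6), APP mice given vehicle (n = 6) and WT mice given vehicle (n = 4). APP mice were of a transgenic line on a C57B/6 background that carries mutant human APP, driven by the neuronal Thy1 promoter. JQ1 was given intraperitoneally at 50 mg per kg for 10 days, and vehicle was 10% DMSO by the same route for the same time. The strain label of the aged WT mice also names the APP line, while their titles call them WT, and a WT replicate 2 that the labels list was not analysed here. The other experiment used C57B/6JRj mice of 3 months, 8 given JQ1 at 50 mg per kg and 8 given vehicle with 10% DMSO, for 13 days. Each library is taken as 1 mouse.

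Myeloid cells carry paired receptors, families in which closely related proteins either hold an inhibitory motif in their tail or associate with an activating adaptor such as Tyrobp (also named DAP12). In the brain the best known example is Cd200, a surface glycoprotein of neurons, whose binding to Cd200r1 on microglia restrains these cells. Cd200r4 is a relative of Cd200r1 with a short tail that pairs with Tyrobp. Cd300lf is an inhibitory receptor and Cd300lb an activating receptor of the CD300 family, which recognises lipids exposed on dying cells. Pilra is an inhibitory receptor for sialylated glycoproteins, Klrb1b is an inhibitory lectin-like receptor best known from natural killer cells with Clec2d as its ligand, and Dcstamp is a membrane protein required for the fusion of osteoclasts and of macrophage giant cells.

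Promoters of these genes were read because most of the genes share low counts in WT mice. Windows of 250 bases before to 50 bases after the start site (RefSeq, GRCm38.p6) were matched by symbol for 6 of the 8 genes, all but Cd200r1 and Dcstamp. The core of the site for PU.1, a transcription factor of the myeloid lineage, was searched as GAGGAA on both strands and is in capitals below. Shown are the windows of Cd300lf, which holds it at 2 places, Klrb1b, which holds it far from the start, Cd200, the ligand, and Cd200r4, which does not hold it. They lie on chr11:115133943-115134242 (minus strand), chr6:128826266-128826565 (minus strand), chr16:45409004-45409303 (minus strand) and chr16:44820478-44820777 (plus strand).
Cd300lf: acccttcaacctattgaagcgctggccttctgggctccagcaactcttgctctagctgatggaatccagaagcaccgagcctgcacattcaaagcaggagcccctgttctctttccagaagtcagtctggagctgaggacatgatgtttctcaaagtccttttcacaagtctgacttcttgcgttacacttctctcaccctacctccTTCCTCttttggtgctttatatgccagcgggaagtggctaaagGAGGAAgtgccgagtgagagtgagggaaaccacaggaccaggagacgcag
Klrb1b: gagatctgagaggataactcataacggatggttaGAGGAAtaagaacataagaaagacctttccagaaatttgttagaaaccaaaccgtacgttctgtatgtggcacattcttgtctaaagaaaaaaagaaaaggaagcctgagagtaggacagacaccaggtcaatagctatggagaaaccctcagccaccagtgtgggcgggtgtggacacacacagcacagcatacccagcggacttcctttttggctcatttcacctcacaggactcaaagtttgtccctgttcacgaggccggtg
Cd200: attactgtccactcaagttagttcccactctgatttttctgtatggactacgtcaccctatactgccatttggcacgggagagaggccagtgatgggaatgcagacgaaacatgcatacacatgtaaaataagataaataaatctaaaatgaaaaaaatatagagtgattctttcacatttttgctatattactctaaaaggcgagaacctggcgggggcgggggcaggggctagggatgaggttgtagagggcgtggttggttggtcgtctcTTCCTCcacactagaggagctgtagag
Cd200r4: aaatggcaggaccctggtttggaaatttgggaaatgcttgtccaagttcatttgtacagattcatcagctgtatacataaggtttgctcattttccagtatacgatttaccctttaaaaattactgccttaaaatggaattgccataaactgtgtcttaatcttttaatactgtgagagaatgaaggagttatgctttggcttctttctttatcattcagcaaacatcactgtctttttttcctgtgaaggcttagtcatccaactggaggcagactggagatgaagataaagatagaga

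The letters were present in 4 of the 6 windows, those of Cd200, Cd300lf, Klrb1b and Pilra, and in 28.3% of all 32851 promoter windows. In Cd300lf they began 43 bases before the start (position -43) and at the start itself (position 0), in Cd200 at position 23, and in Klrb1b and Pilra at -216 and -211. The letters TATAAA, also searched on both strands, were found in the window of Cd300lb and, on the opposite strand, of Cd300lf, and in 13.6% of all windows. TGANTCA, the site of AP-1, searched likewise, was in none of the 6 and in 7.81% of all windows. The Cd200 window held 8 CpG, and those of Cd200r4 and Pilra 1 each, beside a median of 7 over all windows. The RefSeq start of Cd200r4 lay 8995 bases inside the gene as GENCODE draws it, so that this window belongs to an internal start. A match of letters is a description and no evidence of binding.

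The library labelled JQ1-treated APP replicate 4 went against its label and is therefore named here before any result. App had 1780 CPM in it (read counts scaled to a common library size, with TMM factors), below the 1850 to 1990 CPM of the 4 WT libraries and below the 2070 to 2710 CPM of the other 11 APP libraries. Thy1, whose promoter drives the transgene, had 819 CPM, against 840 to 1070 in WT and 1620 to 2340 in the other APP libraries. Comparisons that include JQ1-treated APP mice are therefore given with and without it. Aged libraries held 14605459 to 25339482 counts, and a count of 3, used here as the detection floor, equals 0.118 to 0.205 CPM. Sequencing depth in young mice is unknown because their files give FPKM (fragments scaled to transcript length and library size).

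**Figure D1:**
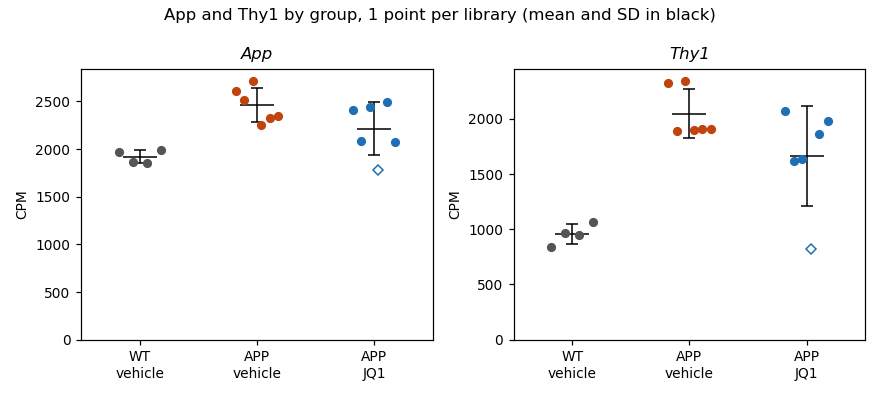
CPM (linear axis from 0) of App and Thy1 in each aged library, with the mean and SD of each group in black. The open diamond is the library labelled JQ1-treated APP replicate 4, at 1780 and 819 CPM, which lies below every other library for both genes.

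Cd200 was the most abundant of the 8 genes and its levels overlapped between all groups. The WT libraries had 109, 64.1, 58.7 and 61.0 CPM (replicates 1, 3, 4 and 5). Vehicle-treated APP mice ranged from 59.5 to 88.9 CPM with a median of 62.7, and JQ1-treated APP mice from 58.3 to 112 CPM with a median of 78.0. The groups overlapped throughout, and the highest values were those of WT replicate 1 and of the library labelled JQ1-treated APP replicate 4. The mean in vehicle-treated APP mice was 70.1 ± 13.8 CPM (SD, n = 6) and in WT mice 73.3 ± 24.1 CPM (SD, n = 4), a ratio of 0.957.

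The receptor Cd200r1 was counted in every library but at low numbers. WT libraries held 3, 6, 2 and 3 counts, or 0.149, 0.293, 0.0843 and 0.127 CPM. Vehicle-treated APP mice ranged from 0.534 to 1.18 CPM with a median of 0.725, and JQ1-treated APP mice from 0.4 to 1.07 CPM with a median of 0.649. All 12 APP libraries lay above all 4 WT libraries, and the lowest of them was the library labelled JQ1-treated APP replicate 4. The mean of vehicle-treated APP mice was 4.85 times that of WT mice. For JQ1-treated APP mice the ratio was 4.38, and 4.77 without that library.

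Cd200r4 was close to absent in WT mice. It had 1 count in WT replicate 5 and 0 counts in the other 3 WT libraries, and between 8 and 63 counts in vehicle-treated APP mice. In CPM the vehicle-treated APP mice ranged from 0.356 to 2.78 with a median of 2.11. JQ1-treated APP mice had 1.97, 1.22, 1.39, 0.0666, 0.958 and 1.78 CPM (replicates 1 to 6). The library labelled replicate 4 thus held 1 count, and vehicle-treated APP replicate 6, with 8 counts, was the next lowest. With the counts of each group pooled, the ratio of vehicle-treated APP to WT mice was 167, with a 95% interval of 29.7 to 6620 that covers counting error only and is wide because of the single WT count. For JQ1-treated APP mice it was 113, and 131 (23.1 to 5200) without the library labelled replicate 4.

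The order of the 2 receptors differed between genotypes when levels were compared per length. In vehicle-treated APP mice Cd200r4 had a mean of 0.932 ± 0.45 RPKM (CPM per kilobase of exon, SD, n = 6) and Cd200r1 0.237 ± 0.0816 RPKM. In WT mice the values were 0.00516 ± 0.0103 RPKM for Cd200r4 and 0.0488 ± 0.0271 RPKM for Cd200r1 (SD, n = 4). Both genes lie on the plus strand of chromosome 16 (mm10), Cd200r1 at 44765736 to 44794978 and Cd200r4 at 44811733 to 44839150, and Cd200, on the minus strand, at 45382135 to 45409053. Of the 50-base windows of Cd200r4 transcripts, 4.94% also occurred in Cd200r2 or Cd200r1, so a small part of its counts could be split among relatives.

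Of the pair of CD300 genes among the 8, the inhibitory Cd300lf was the more abundant, though below its relatives Cd300a and Cd300c2, whose levels are given further on. It had 0.149, 0.293, 0.126 and 0.296 CPM in the WT libraries. Vehicle-treated APP mice ranged from 1.35 to 4.54 CPM with a median of 2.38, and JQ1-treated APP mice from 0.333 to 5.02 CPM with a median of 1.39. No APP library lay within the WT range, although the library labelled JQ1-treated APP replicate 4 was just above it, and JQ1-treated replicate 6 was the highest of all. The mean of vehicle-treated APP mice was 11.3 times that of WT mice, and that of JQ1-treated APP mice 8.78 times, or 10.2 times without the library labelled replicate 4.

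The activating Cd300lb had a count of 1 in WT replicate 5 and none in the other WT libraries. Vehicle-treated APP mice had between 2 and 33 counts, or 0.089 to 1.46 CPM with a median of 0.565. In JQ1-treated APP mice the values were 1.05, 2.13, 0.19, 0.0666, 0.373 and 0.33 CPM. Replicates 1 and 2 of the JQ1-treated mice and replicate 1 of the vehicle-treated mice were the only libraries above 1 CPM. The pooled ratio of vehicle-treated APP to WT mice was 57.2, with a 95% counting interval of 9.99 to 2280. Cd300lb lies at 114922781 to 114934386 and Cd300lf at 115116214 to 115133992 on the minus strand of chromosome 11, and 2.44% of the windows of Cd300lf also occurred in Cd300ld or Cd300ld5.

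Pilra differed least among the 7 genes other than Cd200. WT libraries had 0.647, 0.684, 0.548 and 0.633 CPM, and vehicle-treated APP mice 0.494 to 1.85 CPM with a median of 1.36. JQ1-treated APP mice ranged from 0.866 to 1.77 CPM with a median of 1.2. All JQ1-treated libraries and 5 of 6 vehicle-treated APP libraries were above the WT range, while vehicle-treated APP replicate 2 was below it. The ratio of means was 2.08. Of the exonic bases of Pilra (chromosome 5, 137821952 to 137836281, minus strand), 15.1% overlap exons of Zcwpw1 on the other strand, and whether the counting used strand is not given in the sources used here, so that reads of both genes may be mixed.

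Klrb1b had no count in any of the 4 WT libraries. Vehicle-treated APP mice had between 3 and 23 counts, or 0.131 to 0.899 CPM with a median of 0.462. The JQ1-treated APP mice had 1.01, 0.658, 0.253, 0, 0.16 and 0.264 CPM, the 0 being that of the library labelled replicate 4. Set against 3 counts over the WT group, the level in vehicle-treated APP mice was at least 14.2-fold higher, and in JQ1-treated APP mice at least 13.1-fold higher, or 15.2-fold without that library. In Klrb1b (chromosome 6, 128813706 to 128826331, minus strand) 26.9% of the exonic bases are shared with Gm44511 on the same strand, which makes its counts uncertain.

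Since Klrb1b is a receptor of natural killer cells, markers of these cells were read beside it. None of the 12 NK and T cell markers passed the filter on low counts, and Ncr1, which defines NK cells, had at most 1 count in any library. The summed level of the 12 markers was 0 to 3.16 CPM in vehicle-treated APP mice, 0.2 to 2.91 CPM in JQ1-treated APP mice and 0.348 to 0.76 CPM in WT mice. In vehicle-treated APP replicate 4 all 12 markers had 0 counts, and Klrb1b had 15. That is 1 library, and which cells held Klrb1b was not tested.

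Dcstamp, the fusion protein, had the widest range of the genes that were near 0 in WT mice. WT libraries had 2, 3, 3 and 0 counts, at most 0.147 CPM. Vehicle-treated APP mice ranged from 1.51 to 17.7 CPM with a median of 9.65. JQ1-treated APP mice had 8.94, 11.1, 3.73, 0.0666, 2.66 and 5.88 CPM. Apart from the library labelled JQ1-treated APP replicate 4, which held 1 count, every APP library exceeded every WT library, and vehicle-treated APP replicate 6 was the lowest of its group. The mean of vehicle-treated APP mice was 105 times that of WT mice, and that of JQ1-treated APP mice 57.9 times, or 69.4 times without the library labelled replicate 4. Dcstamp (chromosome 15, 39745930 to 39760938, plus strand) shares no exon and no 50-base window with another gene.

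**Figure D2:**
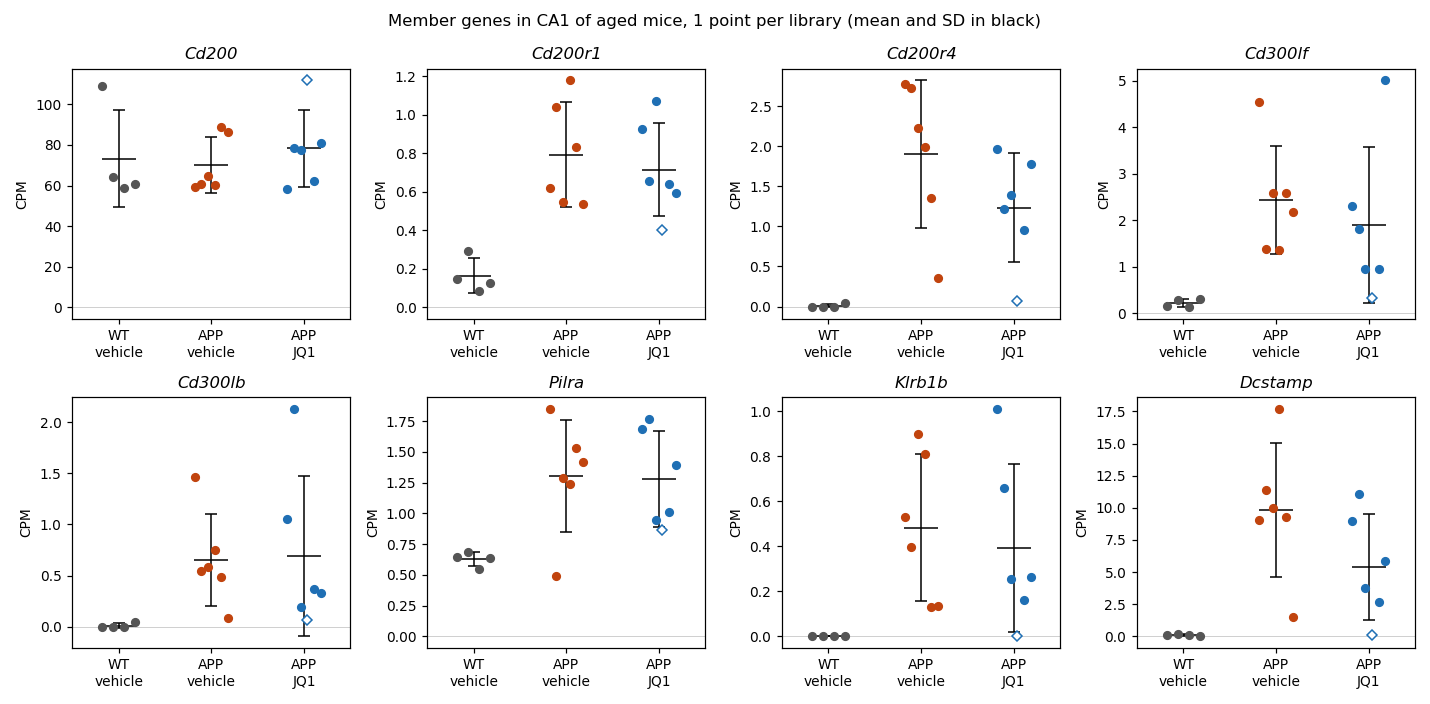
CPM of the 8 genes in each aged library (linear axes, a separate scale for each gene), with the mean and SD of each group in black and the library labelled JQ1-treated APP replicate 4 as an open diamond. Cd200 is near the same level in all groups, whereas Cd200r4, Cd300lb, Klrb1b and Dcstamp lie near 0 in WT mice.

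In all, the vehicle-treated APP and WT groups did not overlap for 6 of the 8 genes (Cd200r1, Cd200r4, Cd300lf, Cd300lb, Klrb1b and Dcstamp), each higher in APP mice. Over the 16962 genes tested, 6.99% did not overlap in either direction and 4.94% were higher in APP mice, but this contrast chose the genes and nothing is read from the count. Between JQ1-treated APP and WT mice 5 genes did not overlap, and 7 without the library labelled replicate 4, beside 3.72% and 7.71% of all genes in either direction and 2.55% and 5.87% higher in APP mice. Both comparisons use the same WT mice. All 8 genes passed the filter on low counts, and all but Cd200 and Pilra could have passed it only through APP libraries.

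Per length, the order of the levels in vehicle-treated APP mice was Cd200 (21.1 RPKM), Dcstamp (3.69), Cd200r4 (0.932), Cd300lf (0.473), Pilra (0.423), Cd200r1 (0.237), Cd300lb (0.223) and Klrb1b (0.217), all as mean RPKM. Only Cd200 was clear of its neighbour, its lowest library having 17.9 RPKM and the highest Dcstamp value being 6.63 RPKM. All later neighbours in the order overlapped. In WT mice Cd200 (22.1 RPKM) and Pilra (0.203 RPKM) led, both clear of the gene after them, followed by Cd200r1, Cd300lf and Dcstamp at 0.0488, 0.042 and 0.035 RPKM, whose ranges overlapped.

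In tissue, fewer cells of a type and less RNA per cell cannot be told apart, and the 16 microglial markers moved with these genes. Their summed level was 559 to 619 CPM in WT mice, 1230 to 2460 CPM in vehicle-treated APP mice, and 1360 to 2270 CPM in JQ1-treated APP mice without the library labelled replicate 4, which had 610 CPM. Of these markers 11 of 16 rose in vehicle-treated APP mice against WT mice and none fell (edgeR), led by the complement subunits C1qa (log2 change 2.51, SE 0.43, adjusted p = 0.00879), C1qc and C1qb. The background is 2.57% of genes called, with 422 higher (2.49%) and 14 lower (0.0825%). With GC content and length offset the split was 374 higher and 81 lower. The 7 border macrophage markers, which had 8.69 to 19.6 CPM in vehicle-treated APP mice and 4.83 to 11.9 CPM in WT mice, had no call. The 8 markers of CA1 neurons, the labelled tissue, were all detected. Their sum was 5120 to 6110 CPM in WT mice and 4290 to 5250 CPM in vehicle-treated APP mice. In JQ1-treated APP mice it was 4030 to 5310 CPM. Between vehicle-treated APP and WT mice 0 of the 8 was called, and 1 was called lower without the library labelled replicate 4. The choroid plexus markers reached 3180 CPM in WT replicate 4 and at most 142 CPM in any other library. Markers of monocytes and neutrophils (3 of 10 tested), B cells (0 of 5), mast cells (1 of 6), the dentate gyrus and CA3 (6) and blood (5) had no call in this contrast either. The part of these cells in the results was not tested.

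Per 1000 CPM of the microglial markers, a ratio added after the values had been seen, the genes fell into different patterns. Cd200r4 had 0.946 ± 0.435 in vehicle-treated APP mice (SD, n = 6) and at most 0.0682 in WT mice. Dcstamp had 4.87 ± 2.39 against 0.159 ± 0.113, and Cd300lf 1.28 ± 0.564 against 0.365 ± 0.159 (SD, n = 6 and n = 4). For these 3 genes, and for Cd300lb and Klrb1b, all 6 vehicle-treated APP libraries were above all WT libraries on this scale too. For Cd300lb this was by 0.0723 (vehicle-treated APP replicate 6, 2 counts) against 0.0682 (WT replicate 5, 1 count). The share over all genes was not computed on this scale. Since this contrast chose the genes, nothing is read from the count. Cd200r1 overlapped, with 0.422 ± 0.146 in vehicle-treated APP and 0.28 ± 0.17 in WT mice and 2 of 6 APP libraries above the WT range. Pilra was lower on this scale in vehicle-treated APP mice, with 0.702 ± 0.305 against 1.06 ± 0.139, and no vehicle-treated APP library was above the WT range. Abundant markers weigh most in the sum, and its make-up differed between groups. Its highest gene was Csf1r in WT mice (mean 94.2 CPM) and Ctss in vehicle-treated APP mice (mean 349 CPM). A value on this scale is therefore no level per cell.

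**Figure D3:**
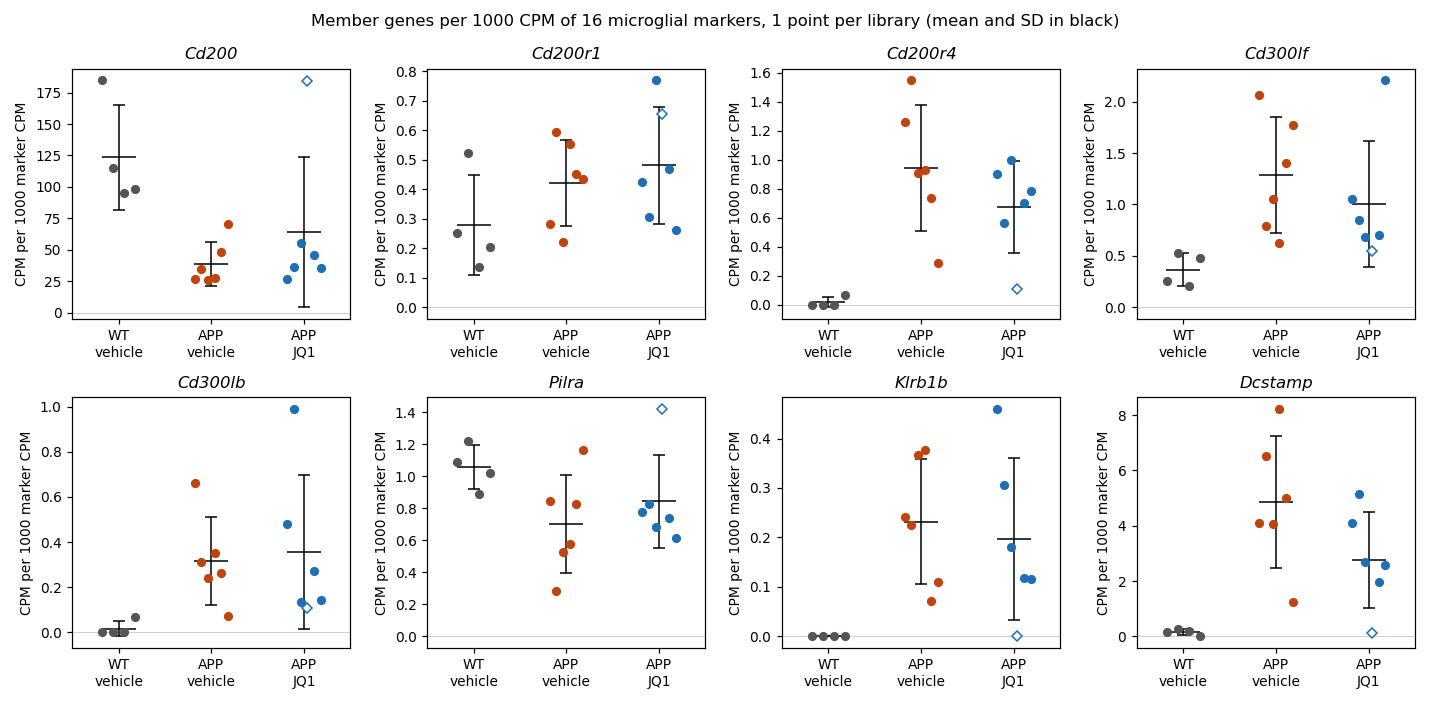
CPM of each gene per 1000 CPM of the 16 microglial markers, by aged library (linear axes), with the mean and SD of each group in black and the library labelled JQ1-treated APP replicate 4 as an open diamond. Cd200r4, Cd300lf, Cd300lb, Klrb1b and Dcstamp stay above WT in all 6 vehicle-treated APP libraries, whereas Cd200r1 and Pilra overlap with WT. The lowest of these libraries for Cd300lb, at 0.0723, is only just above the highest WT value of 0.0682.

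Whether JQ1 changed these genes in APP mice was tested, since this contrast was not used to choose them. It is not fully separate from the choice, because its libraries are the APP libraries in which several genes were seen to be high. None of the 8 genes was called at an adjusted p under 0.05 with edgeR's quasi-likelihood test, and 0 had an unadjusted p under 0.05, and DESeq2 gave 0 at an unadjusted p under 0.05 but no adjusted p for 5 of the 8 genes. The background is 1.08% of genes called, 0.619% (105) higher and 0.466% (79) lower after JQ1, or 32 higher and 6 lower when GC content and length were offset. Without the library labelled replicate 4 the background is 0.431% (0.366% higher and 0.0649% lower), and again 0 of the 8 genes was called. The median log2 change was -0.185 over the 8 genes and -0.001 over all genes tested, and 6 of the 8 were below 0. Without that library the median was -0.003 and 4 of 8 were below 0, beside 0.006 over all genes.

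Dcstamp and Cd200r4 had the lowest estimates after JQ1. Dcstamp had a mean of 5.4 ± 4.1 CPM in JQ1-treated and 9.82 ± 5.18 CPM in vehicle-treated APP mice (SD, n = 6 each), a log2 difference of -0.85 with a 95% interval of -2.24 to 0.53 (edgeR, adjusted p = 0.528). Without the library labelled replicate 4 the difference was -0.59 with an interval of -1.60 to 0.41 (edgeR, adjusted p = 0.63). Cd200r4 had 1.23 ± 0.68 and 1.91 ± 0.92 CPM, a log2 difference of -0.62 with an interval of -1.68 to 0.45 (edgeR, adjusted p = 0.559), and -0.37 without that library, with an interval of -1.24 to 0.50. All 6 JQ1-treated libraries were below the vehicle median of Cd200r4, and 5 of 6 lay within the vehicle range. Changes of either direction within these intervals remain compatible with the values.

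For the ligand Cd200 the interval was narrower. JQ1-treated APP mice had 78.3 ± 19.0 CPM and vehicle-treated APP mice 70.1 ± 13.8 CPM (SD, n = 6 each), a log2 difference of 0.16 with a 95% interval of -0.22 to 0.53 (edgeR, adjusted p = 0.693). It was 0.03 without the library labelled replicate 4, with an interval of -0.32 to 0.39. Cd200r1 was at -0.13 (-0.84 to 0.58), and at -0.01 without that library. Pilra was at -0.02 (-0.64 to 0.59), and at 0.07 without that library.

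The CD300 receptors and Klrb1b had wide intervals as well. Cd300lf had a log2 difference of -0.36 with an interval of -1.34 to 0.61, and Cd300lb of 0.12 with an interval of -1.22 to 1.46. Without the library labelled replicate 4 they were at -0.14 and 0.34. Klrb1b was at -0.24 (-1.67 to 1.19), and at 0.00 without that library. The exact two-sided permutation tests of log2 CPM gave p between 0.229 (Dcstamp) and 0.976 (Pilra), where the smallest p that 6 against 6 libraries can give is 0.00216.

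**Figure D4:**
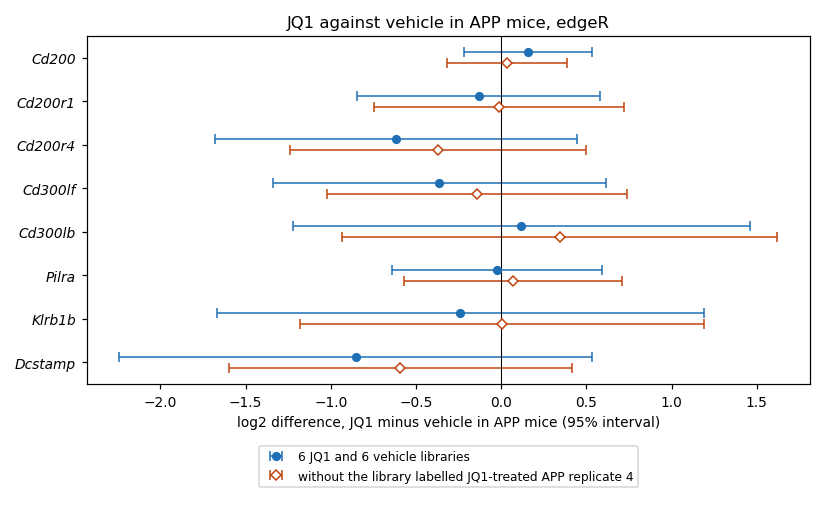
Log2 difference of JQ1 from vehicle in APP mice for each gene, with its 95% interval, from all 12 libraries (filled circles) and without the library labelled JQ1-treated APP replicate 4 (open diamonds). Every interval includes 0, and those of Cd300lb, Klrb1b and Dcstamp are the widest.

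In young WT mice most of the genes were near 0 with or without JQ1, and only Cd200 passed the filter on low FPKM. Cd200 ranged from 71.7 to 119 FPKM with a median of 94.6 after JQ1 and from 83.6 to 109 FPKM with a median of 91.2 after vehicle. The groups overlapped, at 98.6 ± 17.6 and 93.0 ± 9.31 FPKM (SD, n = 8 each), and the log2 difference was 0.07 (SE 0.10, limma, adjusted p = 0.981). The background in this comparison is 0.00543% of the loci tested. With no filter on low values 0 of the 8 genes was called, and 0 had an unadjusted p under 0.05 (limma).

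The other 7 genes are given by their levels in young mice. Pilra had 0.423 ± 0.0852 FPKM after vehicle, at a locus that the files share with Zcwpw1, Cd300lf 0.148 ± 0.051 at a locus shared with Rab37, and Cd200r1 0.127 ± 0.0198 FPKM (SD, n = 8). After JQ1 they had 0.435 ± 0.0845, 0.175 ± 0.0814 and 0.136 ± 0.0434 FPKM. Cd200r4 was listed at 0 in 7 of 8 vehicle-treated and 6 of 8 JQ1-treated mice, and Dcstamp in 7 and 3. Klrb1b was listed at 0 in 6 and 4, and Cd300lb, at a locus shared with Gm11699, in 3 and 1. The highest values of these 4 genes were 0.0755, 0.0933, 0.214 and 0.204 FPKM, each in a JQ1-treated mouse, and all 4 overlapped between groups. Levels in FPKM and CPM come from separate experiments and were not compared by a test.

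**Figure D5:**
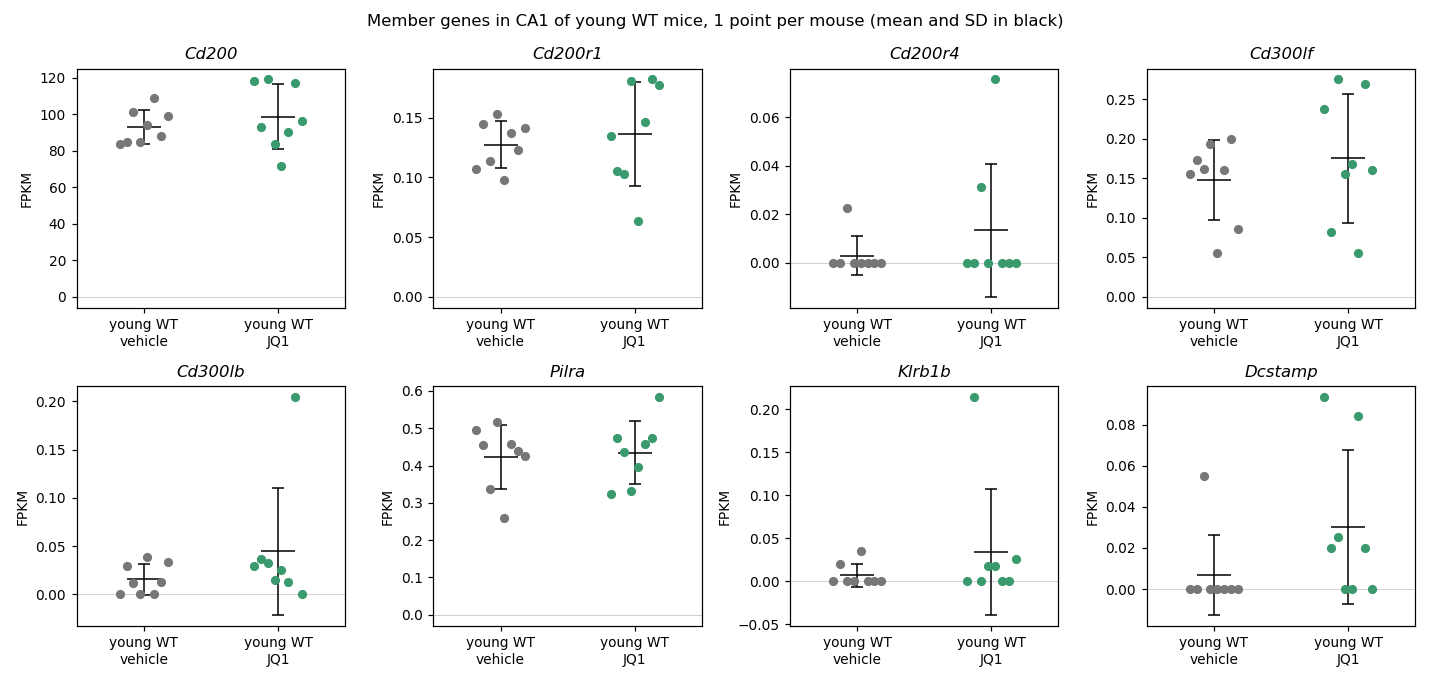
FPKM of the 8 genes in each young WT mouse (linear axes, a separate scale for each gene), vehicle in gray and JQ1 in green, with the mean and SD of each group in black. Both groups overlap for every gene, and Cd200r4, Cd300lb, Klrb1b and Dcstamp are listed at 0 in several mice.

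Relatives and partners of the 8 genes were tested in both contrasts. The choice of the 8 genes did not use them, but their lists were drawn up with earlier results of these data known. Of 32 relatives (CD200 and CD300 receptors, Pilr, Klrb1 and Clec2 genes) 28 were in the count files, and only 4 passed the filter. Cd300a, an inhibitory CD300 receptor, rose in vehicle-treated APP mice against WT mice from 1.58 ± 0.235 to 4.06 ± 0.934 CPM (log2 change 1.36, edgeR, adjusted p = 0.0319), and Cd300c2, an activating member, from 3.26 ± 0.228 to 12.1 ± 3.47 CPM (1.89, adjusted p = 0.00959). The call of Cd300c2 was kept whichever library was left out, and that of Cd300a was lost in 9 of 16 such fits, those without vehicle-treated APP replicate 1, 2, 3, 4 or 5 or without any of the WT libraries, with an adjusted p of up to 0.123. Clec2d, the ligand of Klrb1b, was at 19.6 ± 12.5 CPM in vehicle-treated APP and 18.3 ± 19.4 CPM in WT mice (edgeR, adjusted p = 0.965), and Clec2l at 45.6 ± 5.35 and 47.3 ± 2.03 CPM. The other 24 relatives had at most 18 counts in any library, in Klrb1a. None of the 4 was called after JQ1 in APP mice.

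The adaptors that carry the signal of these receptors rose in part. Of 20 adaptor and signalling genes 12 rose in vehicle-treated APP mice and none fell, with a median log2 change of 1.28 beside 0.01 over all genes, where 2.49% were called higher. The median of the 16 microglial markers was 1.27. Tyrobp, the adaptor of Cd200r4 and Cd300lb, rose from 16.2 ± 2.16 to 146 ± 47.3 CPM (log2 change 3.17, edgeR, adjusted p = 0.00828). Fgr, a Src family kinase, was at 2.48 ± 1.21 against 0.206 ± 0.0312 CPM in WT mice. Hcst, the adaptor DAP10, was at 0.799 ± 0.371 against 0.0788 ± 0.0602 CPM. The call of Tyrobp was kept whichever library was left out. After JQ1 in APP mice Pik3cd, the delta catalytic subunit of phosphoinositide 3-kinase, fell by 0.42 on the log2 scale, from 42.6 ± 2.87 to 31.9 ± 3.49 CPM (SD, n = 6 each, edgeR, adjusted p = 0.0309). The groups did not overlap, and WT libraries ranged from 29.9 to 41.5 CPM. Without the library labelled replicate 4 its adjusted p was 0.0878. The call was also lost without JQ1-treated replicate 2, 3 or 6 or vehicle-treated replicate 1, 3 or 5.

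Of 31 other paired and inhibitory myeloid receptors that passed the filter, 19 rose in vehicle-treated APP mice and none fell, with a median log2 change of 1.72. Over all genes the median was 0.01 and 2.49% were called higher. Clec7a, the beta-glucan receptor dectin-1, was at 15.3 ± 5.39 CPM against 0.303 ± 0.216 CPM in WT mice. Cd22, a sialic acid receptor, was at 3.22 ± 1.17 against 0.0826 ± 0.0505 CPM, and Milr1, the Ig-like receptor allergin-1, at 2.95 ± 1.44 against 0.325 ± 0.258 CPM. Fgr, Hcst, Clec7a, Cd22 and Milr1 were too low in WT mice to pass the filter there, so they passed it through APP libraries. Their tests are therefore not given, and the counts over these lists hold such genes and are a description. None of the 31 was called after JQ1 in APP mice. Over the 4 lists of relatives and partners together, 39 of 73 genes rose in vehicle-treated APP mice, where 2.49% of all genes were called higher. After JQ1 in APP mice 2 fell and 0 rose, where 0.466% of all genes were called lower and 0.619% higher (edgeR). DESeq2 called 1 higher after JQ1, the Ras GTPase-activating protein Rasa1, named after its value was seen (log2 difference 0.38, adjusted p = 0.0103, against 0.0617 in edgeR), and 1 lower, Pik3cd. Between JQ1-treated APP mice and the same WT mice 30 of the 73 rose and 1 fell, or 39 and 1 without the library labelled replicate 4. The background there is 2.06% of genes called (1.93% higher and 0.13% lower), and 3.84% without that library (3.6% higher and 0.242% lower). The 39 between vehicle-treated APP and WT mice became 42 without that library, with a background of 3.55% (3.32% higher and 0.224% lower). They became 16, 21, 24 and 25 when WT replicate 1, 3, 4 or 5 was left out. Over all 17262 to 17341 genes tested in these fits, 154, 186, 244 and 214 were called.

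Dcstamp belongs to a programme of cell fusion and osteoclast formation, of which 18 other genes passed the filter. In vehicle-treated APP mice 6 of them were called higher and none lower, with a median log2 change of 0.79. Over all genes the median was 0.01 and 2.49% were called higher. Among the 6, Atp6v0d2, a proton pump subunit that also takes part in fusion, was at 0 to 1.38 CPM (0.736 ± 0.501) and at 0 in all WT libraries, and since it passed the filter only through APP libraries its test is not given. Cd44, a hyaluronan receptor, was at 16.1 ± 19.8 against 1.77 ± 0.701 CPM (log2 change 3.18, edgeR, adjusted p = 0.0371), and the tetraspanin Cd9 at 135 ± 60.2 against 43.4 ± 7.26 CPM (1.64, adjusted p = 0.0352). Both calls were lost when any WT library was left out, with adjusted p up to 0.141, and that of Cd9 also without vehicle-treated APP replicate 1, 2, 3, 4 or 5 and that of Cd44 without replicate 5.

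Oscar, an osteoclast receptor that signals through Fcer1g, was the gene of this programme that fell after JQ1. It had 0.971, 2.13, 2.07, 2.37, 2.32 and 0.223 CPM in vehicle-treated APP mice and 0.282, 0, 0.19, 0, 0.0532 and 0.0661 CPM in JQ1-treated APP mice. The WT libraries had 1.24, 2.05, 0.379 and 2.28 CPM. JQ1-treated libraries were thus below all WT libraries, and overlapped with vehicle-treated APP mice only through replicate 6 of the latter. The library labelled JQ1-treated APP replicate 4 had 0 counts of Oscar, while the WT libraries had between 9 and 54. The log2 difference between JQ1 and vehicle was -3.92 (SE 0.70, edgeR, adjusted p = 0.0102), it was -3.70 without the library labelled replicate 4 (adjusted p = 0.0235), and the call was kept whichever library was left out (adjusted p at most 0.0278). DESeq2 gave no adjusted p for Oscar with all libraries, and a log2 difference of -3.77 (adjusted p = 2.92e-05) without the library labelled replicate 4. No call was made between vehicle-treated APP and WT mice.

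The genes whose levels were most like each of the 8 were named by Spearman's rho of log2 CPM over the 16 aged mice, which mixes the difference between groups with that within them. For Cd200r4 these were Cd14, Cebpa and Tec (rho 0.959 to 0.947), for Dcstamp Slc11a1, Gpnmb and Itgax (0.968 to 0.941), for Klrb1b Itgb5, Apobec1 and Grn (0.961 to 0.952), for Cd300lf Anxa4, Ier3 and Casp8 (0.965 to 0.918) and for Cd300lb Abi3, Slc43a3 and Plaur (0.944 each). For Cd200r1 they were Snx18, Il6ra and Suclg2 (0.894 to 0.885), for Pilra Ppp1r14b, Tor3a and Mrpl9 (0.874 to 0.841) and for Cd200 Dpp10, Paip2b and Ttc5 (0.903 to 0.879). On deviations from the group means Cebpa (0.894) led for Cd200r4, Tlr2 (0.9) for Dcstamp, Ehd2 (0.933) for Klrb1b, Ier3 (0.924) for Cd300lf, Taf7l (0.876) for Cd300lb, Gm16712 (0.788) for Cd200r1, Bbs2 (0.885) for Pilra and Dpp10 (0.953) for Cd200. Without the library labelled replicate 4, Cebpa, Ehd2, Ier3 and Bbs2 still led for their genes (0.878, 0.903, 0.914 and 0.864). Each rho is the highest over all genes tested, from few mice, and all genes of a mouse share a library.

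Among the 8 genes themselves, Klrb1b and Cd300lb deviated together most closely within the groups (rho 0.822 over 16 mice), followed by Cd300lf and Pilra (0.774) and by Klrb1b and Dcstamp (0.661). Without the library labelled JQ1-treated APP replicate 4 these were 0.761, 0.643 and 0.687, and Cd300lb and Dcstamp had 0.681, so that the order after the leading pair changed. Cd200 had negative values with Cd200r4 (-0.475), Klrb1b (-0.461) and Cd300lb (-0.442), and -0.552, -0.515 and -0.466 without that library. With Dcstamp, Cd300lf and its receptor Cd200r1 it had -0.256, -0.156 and -0.121, and with Pilra 0.0529. Without that library the latter were -0.3, -0.0536, -0.0571 and 0.143. All these values are given without a test, and those of Klrb1b and Cd300lb rest on few counts.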

How the data were processed

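RNA was measured in CA1 tissue of 16 aged and 16 young mice, of 33 samples listed. For the aged mice the authors used STAR (up to 2 mismatches, mm10) and deposited raw counts per gene from htseq. The deposited FPKM of the young mice were made with cufflinks/cuffdiff according to the authors. The submitters' processing notes name CASAVA 1.8.2, STAR, HTSeq, TopHat, Cufflinks and Cuffdiff. Whether counting used strand is not given in the sources used here. Entries that name no gene stayed out of totals and tests. Of the uniquely aligned reads 15.4 to 26.9% lay in no feature. Of these reads and those aligned to several places together, the latter made up 26.7 to 36.4%, which lowers genes with near copies.

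Counts were scaled with TMM, filtered with filterByExpr (16962 genes kept) and tested in edgeR 4.0.16 (R 4.3.3) with the robust quasi-likelihood test in 1 fit of 3 groups, with Benjamini-Hochberg adjustment over all genes and a threshold of 0.05. FPKM were tested with limma 3.58.1 (trend, robust) on log2(FPKM + 0.1) for 18420 loci that reached FPKM 0.5 in 8 or more of 16 samples, a scale that understates changes of low genes. DESeq2 1.42.0 was an alternative. Other values and figures came from Python 3.11.15 (pandas 2.3.3, scipy 1.17.1, numpy 2.4.6, matplotlib 3.10.9). Exact permutation tests were two-sided on log2(CPM + 0.1) or log2(FPKM + 0.1). RPKM is CPM divided by exonic length in kilobases (GENCODE release M21). The scripts were tested on simulated data.

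The 8 genes, the related lists and the markers were chosen with earlier results of these data known. Named were the 8 genes, each relative that passed the filter, up to 3 called genes with the largest rise and fall per list, and the 3 genes most like each gene, of which on deviations the first is printed; for JQ1-treated APP against WT mice only counts over the lists are given. Labels do not say whether replicates are separate mice, so p-values measure the spread between these samples. No pair of the 36 same-group pairs of aged libraries was a duplicate (lowest chi-square per degree of freedom 5.62). Intervals and floors of counts cover counting error only. A gene of the transgenic line is not reported here. Alternatives were other tests, filters, pseudocounts, a GC and length offset, a replicate block and leaving out each library.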

Additional observations from a re-analysis of the deposited data

Results flagged for a closer look

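A single sample far from the others of its group, by Dixon's test at the 95% level, was found in 8 of 39 groups of values tested. Chance gives about 1 in 20 only for values without ties. Where all other values of a group were 0, the flag was bound to follow, so no excess is read from the 8. In WT mice replicate 5 held the only count of Cd200r4 and the only count of Cd300lb, each 0.0422 CPM, and WT replicate 1 had 109 CPM of Cd200 where the next WT library had 64.1 CPM. In young JQ1-treated mice replicate 5 had 0.0755 FPKM of Cd200r4 (next 0.031), replicate 7 had 0.204 FPKM of Cd300lb (next 0.0364) and replicate 2 had 0.214 FPKM of Klrb1b (next 0.026). In young vehicle-treated mice replicate 3 was the only one not listed at 0 for Cd200r4 (0.0226 FPKM) and for Dcstamp (0.0548 FPKM).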

How the results depend on the processing

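None of the 8 genes was called after JQ1 in APP or young mice under any setting that tested it: DESeq2 gave no adjusted p for 5 of them (3 without the library labelled JQ1-treated APP replicate 4), a minimum of 10 counts in every sample left Cd200 and Pilra, and in young mice all 8 were tested only with no filter. The genes called after JQ1 in APP mice (184) became 749 with DESeq2, 381 with DESeq2 without the library labelled JQ1-treated APP replicate 4 (chosen after seeing the data), 38 with the GC and length offset, and 65 (without JQ1-treated replicate 2) to 446 (without WT replicate 1) when 1 library was left out. Vehicle-treated APP against WT mice (436) gave 804, 928 and, with only the groups compared in the fit, 679, and 154 (without WT replicate 1) to 601 (without JQ1-treated replicate 4) with 1 library left out. JQ1-treated APP against WT mice (349) gave 790, 1034 and 227, and 11 (without WT replicate 5) to 651 (without JQ1-treated replicate 4). In young mice the 1 locus called became 0 with no filter. Related genes called between vehicle-treated APP and WT mice (39) ranged from 16 to 42 with 1 library left out, and after JQ1 (2) from 1 to 3, with 1 under the GC and length offset, with at least 10 counts in every sample and with only the groups compared. The estimate after JQ1 turned sign for Pilra with DESeq2 without replicate 4 (0.072), and, with 1 library left out, within -0.272 to 0.02 for Cd200r1, -0.619 to 0.529 for Cd300lb, -0.795 to 0.048 for Klrb1b and -0.191 to 0.101 for Pilra. In all, 15 of 193 estimates after JQ1 turned sign, none of them called. The cause was not tested.

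The labels do not state a pairing of same-numbered replicates. The correlation of their deviations averaged 0.124 over 6 pairs of APP mice (-0.107 to 0.342), beside -0.0207 for different numbers. It averaged -0.0495 and -0.215 for vehicle-treated and JQ1-treated APP with WT mice, beside 0.0198 and 0.05 for different numbers. In young mice it was 0.0264, beside -0.00374. These few pairs do not settle whether replicates pair. With the replicate block, alone and with the GC and length offset, the genes called were 87 and 31 after JQ1 in APP mice, 35 and 29 for vehicle-treated and 21 and 36 for JQ1-treated APP against WT mice, with 3 and 3 related genes in vehicle-treated APP against WT mice and 1 and 1 after JQ1. The block gave 0 loci in young mice, and Cd300lb turned to -0.213 and -0.246.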
